A study of Mus musculus with 12 samples.

Results

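Galectin, S100 and annexin genes were examined in invariant natural killer T (iNKT) cells of the mouse thymus that either overexpressed miR-155 or did not. The set holds 10 genes (Lgals1, Lgals3, Lgals9, S100a4, S100a6, S100a10, S100a11, Anxa1, Anxa2 and Anxa6) of the 48709 names in the count table, picked by symbol. The family was selected on measured values, because Lgals3 was among the clearest differences between miR-155KI and WT cells of the NK1.1- pool, so that contrast is given here as a description. No p-value is printed for it, and its counts of called genes are read as support for nothing. There were 12 RNA-seq libraries in 4 groups of 3, which were miR-155KI NK1.1+, WT NK1.1+, miR-155KI NK1.1- and WT NK1.1- cells, all from C57BL/6J mice labelled as 7 weeks old. In miR-155KI mice a Rosa26 knock-in allele of miR-155 is turned on by Cre under the Cd4 promoter, which acts in all thymocytes that pass the CD4-expressing stages and not in iNKT cells alone, and these mice carried the allele on both chromosomes. WT mice were littermates that carried the knock-in allele without Cre. In both genotypes CD8+ thymocytes were removed on beads and the rest were sorted on TCRβ, a CD1d tetramer, NK1.1 and CD44. The labels name a SMART-Seq kit and the study's methods a TruSeq kit, and those methods state that biological replicates were pooled although the tables give separate libraries. Neither source says which mice went into which library, and p-values therefore measure only the spread between these libraries, which may be partly technical.

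Galectins are lectins that bind β-galactoside sugars on glycoproteins. They are made without a signal peptide, act in the cytosol and nucleus and, after release, on the cell surface, where galectin-1 (Lgals1), galectin-3 (Lgals3) and galectin-9 (Lgals9) can cross-link receptors of T cells and thymocytes. S100 proteins are small dimeric EF-hand proteins that change shape on binding calcium and then dock onto partner proteins. Annexins bind acidic phospholipids in the presence of calcium and organise membrane repair, endocytosis and the cortical cytoskeleton. The families meet in complexes, of which that of annexin A2 (Anxa2) with S100A10 (S100a10) is the best known, and S100A11 (S100a11) binds annexin A1 (Anxa1). In the thymus, iNKT cells divide into iNKT1 cells, which mostly carry NK1.1, and iNKT2 and iNKT17 cells, which mostly do not. All levels are from bulk RNA, in which fewer cells of a type and less RNA per cell cannot be told apart.

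The mature miRNA that the cassette adds is shown because its seed sets which messages it can pair with. The sequence is that of RefSeq for GRCm38.p6, chr16:84714143-84714165 on the plus strand, with the seed (bases 2 to 8) in capitals.
mmu-miR-155-5p: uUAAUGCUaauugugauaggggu
Its sites were sought in the GENCODE M21 3′ UTRs of all 10 genes, whose longest 3′ UTRs run to between 92 bases (S100a6) and 480 bases (Lgals3). No annotated 3′ UTR of any of the 10 genes held even the shortest seed match, GCATTA, which 20.5% of the 20999 genes with a 3′ UTR hold. The longest match, AGCATTAA, was found in 3.2% of them. The background genes were not matched to these 10 for 3′ UTR length, so the percentages do not show that the 10 hold fewer sites than their length allows. The absence of a match says only that these letters are not in these windows.

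The libraries held 12819476 to 20518257 counts (median 18066119), and the 10 genes together took between 0.273% and 0.408% of them. Levels below are in CPM, counts scaled to library size, with TMM factors over all 12 libraries. The labels were first checked against the host transcript of miR-155, Mir155hg, which stood at 113 ± 16.6 CPM in miR-155KI NK1.1+ and 11.7 ± 0.49 CPM in WT NK1.1+ libraries, and at 138 ± 6.19 CPM in miR-155KI NK1.1- and 12.1 ± 2.15 CPM in WT NK1.1- libraries (mean ± SD, n = 3 each). These counts do not separate the cassette from the endogenous gene. The gene of the NK1.1 antigen, Klrb1c, lay between 358 and 774 CPM in NK1.1+ libraries and between 36.7 and 79.9 CPM in NK1.1- libraries, and the 6 iNKT and T cell identity markers summed to 3832 to 4747 CPM in every library. Some libraries stood apart. The sum of 11 myeloid markers was 365 to 766 CPM in miR-155KI NK1.1+, 178 to 272 CPM in WT NK1.1+, 51.4 to 93 CPM in miR-155KI NK1.1- and 41.1 to 116 CPM in WT NK1.1- libraries. In WT NK1.1+ libraries nearly all of this sum was Fcer1g (150 to 240 CPM), which like Tyrobp encodes a signalling adaptor that NK cells also use. Without these adaptors, left out after their values were seen, the other 9 markers summed to 112 to 392 CPM in miR-155KI NK1.1+, 20.8 to 23.8 CPM in WT NK1.1+, 19.4 to 54.8 CPM in miR-155KI NK1.1- and 20.3 to 78.8 CPM in WT NK1.1- libraries, so that only the miR-155KI NK1.1+ group stood apart. The 6 markers of double-positive thymocytes summed to 168 CPM in miR-155KI NK1.1+ replicate 1 and to at most 41.2 CPM in any other library. No myeloid, B cell or double-positive marker in the table was at 0 in a whole group. Sex-linked RNA differed between the genotypes in 2 of the 3 WT replicates. Xist, transcribed from the inactive X chromosome, lay between 8.19 and 35 CPM in all miR-155KI libraries, against 11.4 and 12.6 CPM in WT replicate 1 and 135 to 237 CPM in WT replicates 2 and 3 of either pool. The Y-linked gene Ddx3y lay between 55.5 and 76.7 CPM in all miR-155KI libraries, against 62.6 and 52.5 CPM in WT replicate 1 and 3.29 to 6.92 CPM in WT replicates 2 and 3. The miR-155KI libraries thus all had the pattern of male RNA and 4 of the 6 WT libraries mostly that of female RNA, so genotype and sex cannot be told apart against WT replicates 2 and 3, and WT replicate 1 is the only WT library of each pool that matched the miR-155KI libraries.

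All 10 genes passed the filter on low counts in every comparison, so none was lost to it. Levels between genes are compared per kilobase of annotated exon. S100a11 had the highest level in all 4 groups, between 899 and 1019 CPM per kilobase, and Anxa1 the lowest, between 0.365 and 4.43 CPM per kilobase. None of the ranks between them was held by the same gene in all 4 groups, although Lgals1 and S100a10 were 2nd and 3rd, in either order, in each. Lgals3 was 5th of the 10 in WT NK1.1- cells, at 217 CPM per kilobase, but 9th in miR-155KI NK1.1+ cells (75.6), 8th in WT NK1.1+ cells (84.8) and 8th in miR-155KI NK1.1- cells (102). Anxa6 was 4th in miR-155KI NK1.1+ cells, at 255 CPM per kilobase, and 7th in miR-155KI NK1.1- cells, at 108.

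**Figure D1:**
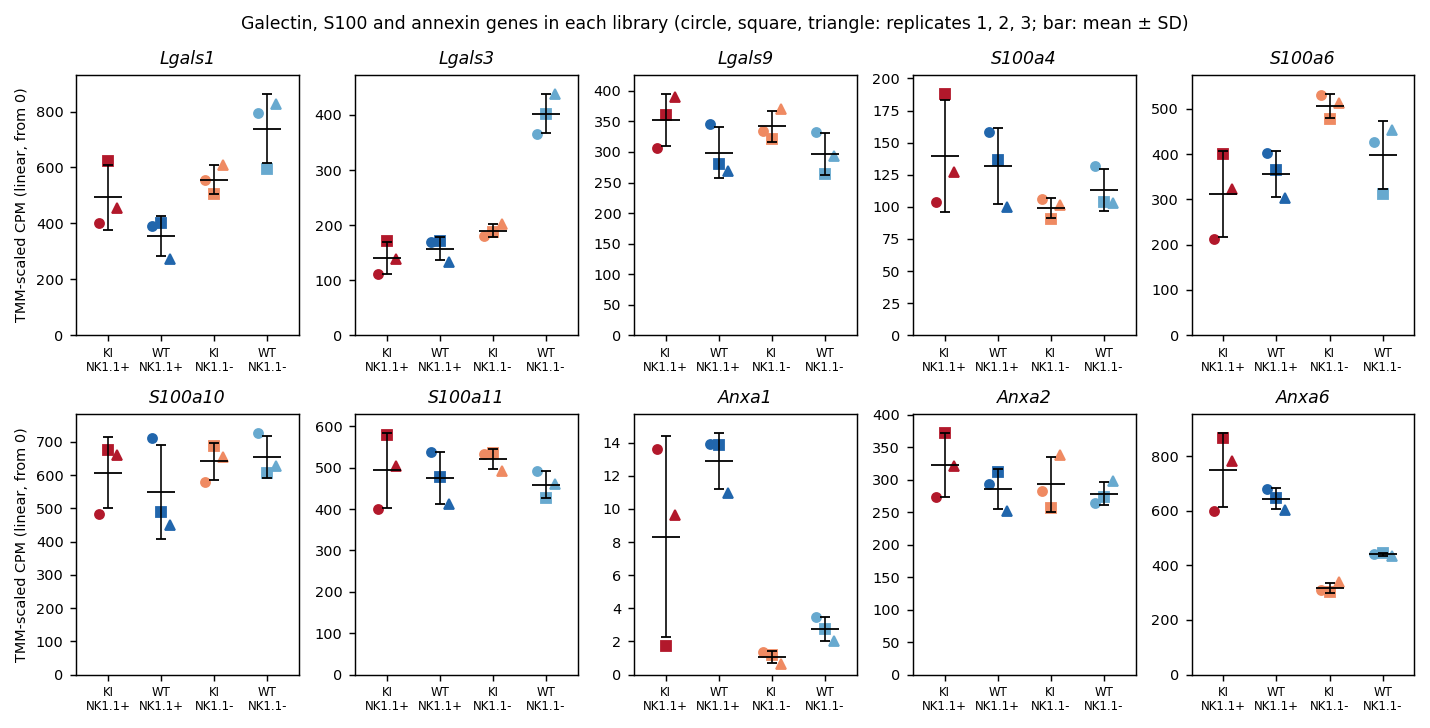
TMM-scaled CPM (linear axes that start at 0) of the 10 genes in each of the 12 libraries, by group. KI is miR-155KI, points are libraries (circle, square and triangle are replicates 1, 2 and 3) and bars are the mean ± SD of 3 libraries. In the Lgals3 panel the 3 WT NK1.1- libraries (366 to 438 CPM) lie above all others, whose highest is 203 CPM, and in the Anxa6 panel the miR-155KI NK1.1- libraries are the lowest, at 302 to 338 CPM.

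Lgals3 encodes galectin-3, the chimera-type galectin, whose collagen-like tail lets it assemble into lattices. The gene lies on chromosome 14 of GRCm38 at 47367751 to 47386160 on the plus strand. It had 112, 171 and 139 CPM in the miR-155KI NK1.1+ libraries, against 169, 171 and 133 CPM in the WT NK1.1+ libraries. It had 181, 187 and 203 CPM in the miR-155KI NK1.1- libraries, against 366, 403 and 438 CPM in the WT NK1.1- libraries. The WT NK1.1- libraries therefore stood alone at the high end, and both NK1.1+ groups overlapped at the low end, with the miR-155KI NK1.1- libraries just above them. In the NK1.1- pool the level was 2.15-fold lower in miR-155KI cells (log2 fold change -1.10, SE 0.10), which is the difference that chose the family. It was -1.17 without WT NK1.1- replicate 1, the only library of its group that matched the miR-155KI libraries in sex-linked RNA, and -0.94 with that library as the only WT library. In the NK1.1+ pool, whose libraries played no part in that choice, the log2 fold change of miR-155KI over WT was -0.18 (SE 0.18, 95% interval -0.53 to 0.17, adjusted p = 0.736 by edgeR's quasi-likelihood test), so no difference was shown. It was -0.27 with WT NK1.1+ replicate 1 as the only WT library. Between the pools, Lgals3 fell in NK1.1+ relative to NK1.1- cells in WT mice (log2 fold change -1.38, SE 0.14, adjusted p = 5.84e-05 by edgeR). All 3 WT NK1.1+ libraries were below all 3 WT NK1.1- libraries, but this comparison uses the same high WT NK1.1- libraries as the contrast that chose the gene. In miR-155KI mice the NK1.1+ libraries again all lay below the NK1.1- libraries, with a log2 fold change of -0.44 (SE 0.15) that did not pass the threshold (adjusted p = 0.0957 by edgeR). That call turned without miR-155KI NK1.1+ replicate 2 (log2 fold change -0.60, adjusted p = 0.0199) and without the filter on low counts (adjusted p = 0.0374), within a range of 0.0199 to 0.295 over 13 alternatives.

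The group with the highest levels of Lgals3 also had the highest sums of iNKT17 markers. The 9 iNKT17 markers used (Il23r, a receptor for IL-23, Il17re, Ccr6, Il1r1, Serpinb1a, Sdc1, Blk, Tmem176a and Tmem176b) summed to 34.1 to 58.2 CPM in miR-155KI NK1.1+, 35.4 to 71.8 CPM in WT NK1.1+, 44.9 to 71.6 CPM in miR-155KI NK1.1- and 154 to 238 CPM in WT NK1.1- libraries. None of these markers was at 0 in a whole group. As for Lgals3, only the WT NK1.1- libraries were high. In the NK1.1- pool, 8 of the 9 markers were called lower in miR-155KI than in WT cells, where edgeR called 1.5% of all 13304 genes lower. The exception was Blk (log2 fold change -0.63, SE 0.47, with overlap). In the NK1.1+ pool 0 of the 9 were called in either direction (0 at an unadjusted p under 0.05, 0 by DESeq2), which is no result about these markers, since only 3 of all 12991 genes were called there. Within the WT NK1.1- group the order of the libraries differed, since replicate 2 had the highest marker sum and replicate 3 the highest Lgals3 level. In miR-155KI NK1.1- replicates 1, 2 and 3 the order was reversed, with marker sums of 71.6, 61.8 and 44.9 CPM and Lgals3 at 181, 187 and 203 CPM. Blk, at 16.5 to 44.7 CPM in this group, was a large part of these sums, so their order need not be that of the other markers. In miR-155KI NK1.1+ cells replicate 1 had the highest sum (58.2 CPM) and the lowest Lgals3 (112 CPM). Only in WT NK1.1+ cells was the order of both the same. The sum of the 8 iNKT1 markers was also lower in NK1.1- cells when miR-155 was overexpressed, at 729 to 900 CPM against 1228 to 1533 CPM for WT. The sum of the 6 iNKT2 markers was higher there, at 3131 to 3239 CPM against 2077 to 2286 CPM for WT. Of these 6 markers, 5 had a positive log2 fold change and 4 were called higher by edgeR. Gata3 did not share the rise (log2 fold change -0.02, SE 0.11, with overlap). The part of these cell types in the levels of Lgals3 was not tested.

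**Figure D2:**
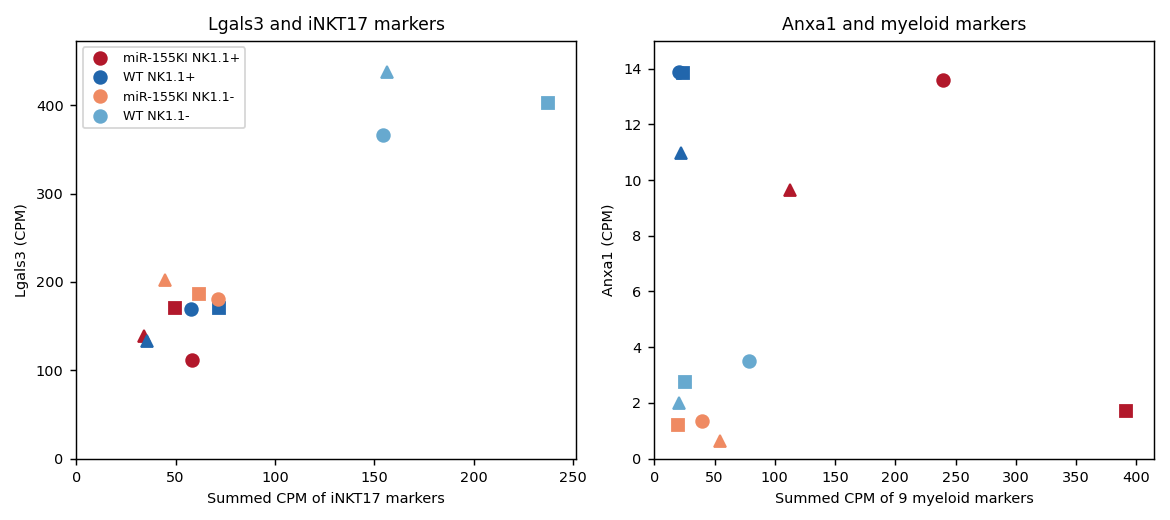
Left, Lgals3 level (CPM) of each of the 12 libraries against the summed CPM of 9 iNKT17 markers; right, Anxa1 level (CPM) against the summed CPM of 9 myeloid markers (Fcer1g and Tyrobp left out); both linear, with colours for groups and circle, square and triangle for replicates 1, 2 and 3. The WT NK1.1- libraries stand alone at the upper right for Lgals3, and the library with the highest myeloid sum, 392 CPM, has 1.7 CPM of Anxa1.

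The promoter of Lgals3 (RefSeq, GRCm38.p6, chr14:47373610-47373909, plus strand, from 250 bases before to 50 after the RefSeq start, which lies inside the longer GENCODE gene) is shown because this gene leads the family. Capitals mark matches, on either strand, to any of 4 motifs, namely AP-1 (TGANTCA), the GC box (GGGCGG), the TATA box (TATAAA) and the CCAAT box (CCAAT).
Lgals3 promoter: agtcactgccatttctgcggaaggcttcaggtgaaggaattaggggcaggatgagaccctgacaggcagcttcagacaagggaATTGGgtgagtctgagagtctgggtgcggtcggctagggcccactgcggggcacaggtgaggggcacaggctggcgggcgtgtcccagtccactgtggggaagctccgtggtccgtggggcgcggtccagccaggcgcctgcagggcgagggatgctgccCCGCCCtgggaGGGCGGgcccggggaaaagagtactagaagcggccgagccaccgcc
It held 2 GC boxes and 1 CCAAT box, motifs found in 35.7% and 37.4% of the 32851 promoters of the table, and no match to AP-1 (7.81%) or the TATA box (13.6%). A match is a description of letters and not a bound site.

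Lgals1 encodes galectin-1, a dimeric galectin that binds CD7, CD43 and CD45 on T cells. It had 403, 622 and 454 CPM in the miR-155KI NK1.1+ libraries, against 392, 403 and 274 CPM in the WT NK1.1+ libraries. It had 555, 505 and 611 CPM in the miR-155KI NK1.1- libraries, against 794, 596 and 826 CPM in the WT NK1.1- libraries. The miR-155KI and WT ranges overlapped in both pools. In WT cells Lgals1 fell in the NK1.1+ relative to the NK1.1- pool (log2 fold change -1.08, SE 0.17, adjusted p = 0.00121 by edgeR), with no overlap, and in miR-155KI cells the same difference was -0.18 (SE 0.16, 95% interval -0.49 to 0.14, adjusted p = 0.547 by edgeR), with overlap. The log2 fold change of miR-155KI over WT was 0.45 (SE 0.19) in NK1.1+ cells, which did not pass the threshold (adjusted p = 0.388 by edgeR), and -0.42 (SE 0.12) in NK1.1- cells. Lgals9, whose product has a pair of sugar-binding domains and is a ligand of TIM-3, differed little anywhere. Its lowest and highest libraries were 307 and 391 CPM in miR-155KI NK1.1+, 269 and 346 CPM in WT NK1.1+, 322 and 371 CPM in miR-155KI NK1.1- and 264 and 332 CPM in WT NK1.1- cells, so that the ranges overlapped in every comparison. Its log2 fold change of NK1.1+ over NK1.1- was 0.04 in miR-155KI cells (95% interval -0.19 to 0.28) and -0.02 in WT cells (95% interval -0.29 to 0.25).

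Among the 4 S100 genes, S100a6 was the one whose level passed a test. S100A6, also called calcyclin, binds the ubiquitin ligase adaptor encoded by Cacybp. S100a6 had 213, 401 and 322 CPM in the miR-155KI NK1.1+ libraries, against 403, 365 and 302 CPM in the WT NK1.1+ libraries. It had 530, 478 and 512 CPM in the miR-155KI NK1.1- libraries, against 427, 312 and 452 CPM in the WT NK1.1- libraries. In the NK1.1- pool every miR-155KI library was above every WT library (log2 fold change 0.34, SE 0.13), the opposite side from Lgals3, and in the NK1.1+ pool the groups overlapped (log2 fold change -0.21, SE 0.21, adjusted p = 0.741 by edgeR). In miR-155KI mice S100a6 fell in NK1.1+ relative to NK1.1- cells (log2 fold change -0.70, SE 0.20, adjusted p = 0.0418 by edgeR), with no overlap. That call was lost without miR-155KI NK1.1- replicate 1, 2 or 3 (adjusted p = 0.135, 0.101 and 0.142) and without miR-155KI NK1.1+ replicate 3 (0.104), and the adjusted p lay between 1.63e-05 and 0.142 over the 13 alternatives. In WT mice the same difference was -0.18 (SE 0.16, adjusted p = 0.467 by edgeR). The lowest S100a6 value was that of miR-155KI NK1.1+ replicate 1, the library high in double-positive thymocyte markers, and without it the difference between miR-155KI pools was -0.49 (adjusted p = 0.025 by edgeR).

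S100a4 lies near S100a6 on chromosome 3 of GRCm38, in the cluster that holds most S100 genes. The pair share a strand, with 6836 bases between them. S100A4, also called metastasin, binds the non-muscle myosin encoded by Myh9. S100a4 (90603771 to 90606045) had 103, 188 and 127 CPM in the miR-155KI NK1.1+ libraries, against 158, 137 and 100 CPM in the WT NK1.1+ libraries. It had 106, 90.6 and 101 CPM in the miR-155KI NK1.1- libraries, against 132, 104 and 103 CPM in the WT NK1.1- libraries. All groups compared overlapped. Its log2 fold change of NK1.1+ over NK1.1- was 0.49 in miR-155KI cells (SE 0.20, adjusted p = 0.147 by edgeR) and 0.19 in WT cells (SE 0.18, adjusted p = 0.486 by edgeR), the opposite sign to S100a6 in both, although neither passed the threshold. Without miR-155KI NK1.1+ replicate 1 the value in miR-155KI cells was 0.66 and passed (adjusted p = 0.0352), as it did without the filter on low counts (adjusted p = 0.0263), within a range of 0.0263 to 0.388 over 13 alternatives. S100a4 shares its place with a predicted gene on the same strand, Gm42674, so its counts could be split between them. The promoters of S100a4 (chr3:90603520-90603819) and S100a6 (chr3:90612644-90612943) are those of RefSeq for GRCm38.p6, on the plus strand. They are shown side by side because the pool differences of the pair had opposite signs, with the same motifs in capitals.
S100a4 promoter: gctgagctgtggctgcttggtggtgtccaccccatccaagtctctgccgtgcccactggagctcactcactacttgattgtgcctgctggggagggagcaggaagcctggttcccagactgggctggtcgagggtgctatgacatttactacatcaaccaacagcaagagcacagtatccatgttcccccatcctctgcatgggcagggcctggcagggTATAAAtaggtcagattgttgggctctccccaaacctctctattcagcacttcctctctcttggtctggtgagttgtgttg
S100a6 promoter: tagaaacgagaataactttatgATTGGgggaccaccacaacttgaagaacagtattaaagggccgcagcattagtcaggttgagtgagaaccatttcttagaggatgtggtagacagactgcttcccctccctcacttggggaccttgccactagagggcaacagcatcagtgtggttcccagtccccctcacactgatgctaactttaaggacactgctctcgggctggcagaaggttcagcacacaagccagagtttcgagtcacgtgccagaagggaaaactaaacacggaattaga
The S100a4 window held 1 TATA box and the S100a6 window 1 CCAAT box, and neither held a match to the other motifs.

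S100a10 and S100a11 also sit together on chromosome 3, with 28792 bases between them, and their products are the partners of annexins A2 and A1. S100a10 ranged between 484 and 677 CPM in miR-155KI NK1.1+, 449 and 712 CPM in WT NK1.1+, 578 and 689 CPM in miR-155KI NK1.1- and 606 and 726 CPM in WT NK1.1- cells. None of its comparisons passed the test. The call between WT pools turned only without WT NK1.1+ replicate 1, the highest of its group (log2 fold change -0.52, adjusted p = 0.0153 by edgeR), against -0.28 with all 3 libraries (adjusted p = 0.289, range 0.0153 to 0.697 over 13 alternatives). S100a11 ranged between 399 and 578 CPM in miR-155KI NK1.1+, 412 and 538 CPM in WT NK1.1+, 493 and 535 CPM in miR-155KI NK1.1- and 427 and 492 CPM in WT NK1.1- cells. In the NK1.1- pool its 3 miR-155KI libraries lay just above the 3 WT libraries (log2 fold change 0.16, SE 0.10), and in NK1.1+ cells the log2 fold change was 0.04 (95% interval -0.27 to 0.35).

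Anxa6 encodes annexin A6, the largest annexin, with a doubled core, which takes part in membrane trafficking and cholesterol homeostasis. It had 599, 865 and 781 CPM in the miR-155KI NK1.1+ libraries, against 681, 646 and 604 CPM in the WT NK1.1+ libraries. It had 310, 302 and 338 CPM in the miR-155KI NK1.1- libraries, against 440, 444 and 436 CPM in the WT NK1.1- libraries. Every NK1.1+ library was above every NK1.1- library in both genotypes. Anxa6 rose in NK1.1+ relative to NK1.1- cells by a log2 fold change of 1.24 in miR-155KI mice (SE 0.14, adjusted p = 0.000428 by edgeR) and of 0.52 in WT mice (SE 0.11, adjusted p = 0.00695 by edgeR). Both calls held in all 13 alternatives of each comparison, with adjusted p between 1.04e-16 and 0.00491 in miR-155KI and between 0.00231 and 0.0477 in WT cells. In the NK1.1- pool all miR-155KI libraries lay below all WT libraries (log2 fold change -0.49, SE 0.09), with -0.50 without WT NK1.1- replicate 1 and -0.47 with it as the only WT library, while in the NK1.1+ pool the groups overlapped (log2 fold change 0.20, SE 0.15, adjusted p = 0.632 by edgeR). The 8 iNKT1 markers ran the same way as Anxa6, with sums of 3842 to 6386 CPM in miR-155KI NK1.1+ and 5186 to 6082 CPM in WT NK1.1+ libraries, against 729 to 900 CPM in miR-155KI NK1.1- and 1228 to 1533 CPM in WT NK1.1- libraries. Their part in the level of Anxa6 was not tested.

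Anxa1 encodes annexin A1, an inhibitor of inflammation induced by glucocorticoids that acts through formyl peptide receptors. It was the scarcest of the 10 genes, with 12 to 269 counts per library. It had 13.6, 1.7 and 9.65 CPM in the miR-155KI NK1.1+ libraries, against 13.9, 13.8 and 11 CPM in the WT NK1.1+ libraries. It had 1.34, 1.2 and 0.642 CPM in the miR-155KI NK1.1- libraries, against 3.49, 2.75 and 2.01 CPM in the WT NK1.1- libraries. The miR-155KI NK1.1+ replicate 2 thus stood far below the other NK1.1+ libraries, at 29 counts, and only just above the highest miR-155KI NK1.1- library. Anxa1 rose in NK1.1+ relative to NK1.1- cells in WT mice (log2 fold change 2.20, SE 0.28, adjusted p = 0.000304 by edgeR), in all 13 alternatives. In miR-155KI mice the log2 fold change was 2.96 (SE 0.73, adjusted p = 0.0314 by edgeR). That call was lost without miR-155KI NK1.1- replicate 1, 2 or 3 (adjusted p = 0.101, 0.108 and 0.142), without miR-155KI NK1.1+ replicate 1 or 3 (0.0754 and 0.0735), and in limma on log2(CPM + 1), where it was 1.82 (adjusted p = 0.0569), and log2(CPM + 0.1), where it was 2.39 (adjusted p = 0.0617), with a range of 0.000224 to 0.142 over 13 alternatives. Between genotypes the log2 fold change was -0.65 in NK1.1+ cells (SE 0.58, adjusted p = 0.713 by edgeR) and -1.38 in NK1.1- cells (SE 0.47), where all 3 miR-155KI libraries lay below all 3 WT libraries. Myeloid markers moved with the pool in miR-155KI mice, where edgeR called 8 of the 10 tested higher in NK1.1+ cells (median log2 fold change 3.13). Of all 12942 genes tested there, 7.92% were called higher, with a median of 0.03. In WT mice edgeR called 2 of 10 (Fcer1g and Tyrobp) higher, against 9.89% of all 13555 genes. The median of the 10 was -0.56, against 0.01 over all genes. The highest sum of the 9 markers without that pair, 392 CPM, was in the miR-155KI NK1.1+ library with 1.7 CPM of Anxa1. The part of myeloid cells in the level of Anxa1 was not tested. The gene overlaps 1500015L24Rik on the opposite strand, and as no source used here states that the counting used strand, reads from the pair cannot be told apart. Its promoter (RefSeq, GRCm38.p6, chr19:20390622-20390921, minus strand) is shown for comparison with that of Lgals3, because the pools differed in opposite directions in the 2 genes.
Anxa1 promoter: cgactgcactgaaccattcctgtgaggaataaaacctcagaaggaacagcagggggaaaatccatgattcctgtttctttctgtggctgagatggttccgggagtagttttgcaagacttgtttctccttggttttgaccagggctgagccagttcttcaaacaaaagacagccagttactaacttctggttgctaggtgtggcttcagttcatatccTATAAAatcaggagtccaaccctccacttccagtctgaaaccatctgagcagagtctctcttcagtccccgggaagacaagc
It held a TATA box as its only match.

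Anxa2, whose product links membranes to actin in its complex with S100A10, ranged between 274 and 372 CPM in miR-155KI NK1.1+, 251 and 313 CPM in WT NK1.1+, 257 and 339 CPM in miR-155KI NK1.1- and 264 and 298 CPM in WT NK1.1- cells. These ranges overlapped in every comparison. Its log2 fold change of miR-155KI over WT was 0.16 in NK1.1+ cells (95% interval -0.14 to 0.45) and 0.05 in NK1.1- cells (95% interval -0.17 to 0.28), and it overlaps Gm16144 on the opposite strand.

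**Figure D3:**
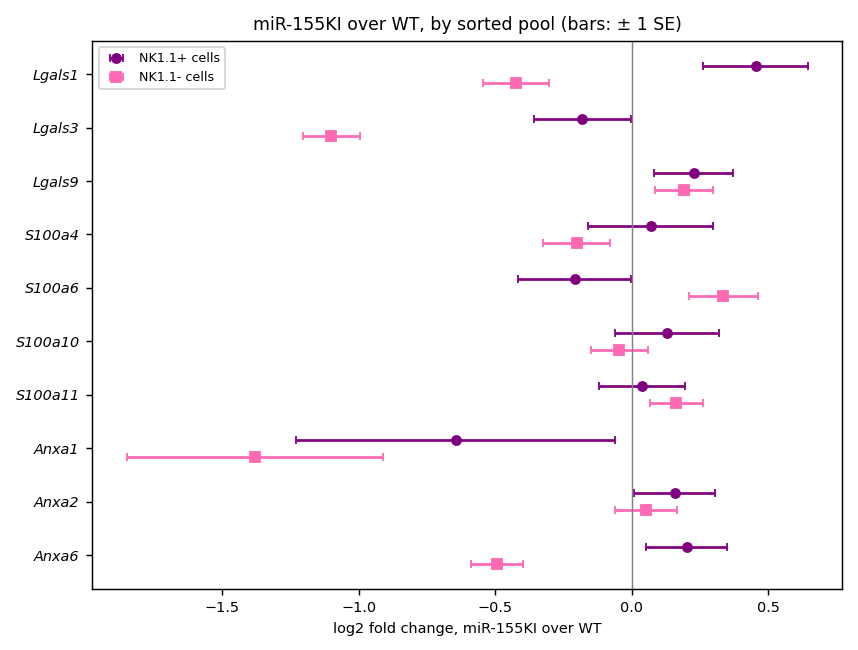
Log2 fold change of miR-155KI over WT (x axis) for the 10 genes, in NK1.1+ (circles) and NK1.1- cells (squares); bars are ± 1 SE and the vertical line marks 0. In NK1.1- cells Lgals3 lies at -1.10 and Anxa6 at -0.49, and in NK1.1+ cells at -0.18 and 0.20.

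Counted over the family, 0 of the 10 genes were called higher and 2 lower (Lgals3 and Anxa6) in miR-155KI than in WT NK1.1- cells, where 1.93% of the 13304 genes tested were called higher and 1.5% lower at an adjusted p under 0.05. Nothing is read from that count, since this contrast chose the family. It was 1 (Lgals3) without miR-155KI NK1.1- replicate 1, without miR-155KI NK1.1- replicate 2 and with all 12 libraries fitted together, and 3 (with Lgals1) without WT NK1.1- replicate 2. The median log2 fold change of the 10 genes there was -0.12, against -0.001 over all genes tested. In NK1.1+ cells edgeR called 0 of the 10 genes in either direction, as did DESeq2, and 1 (Lgals1) had an unadjusted p under 0.05. There the background was 0.0231% higher and 0% lower of 12991 genes (3 and 0 genes by edgeR, 316 in all by DESeq2, and 1539 at an unadjusted p under 0.05). The median log2 fold change was 0.10 over the 10 genes and 0.02 over all genes.

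Between the pools, 2 of the 10 genes (Anxa1 and Anxa6) were higher and 1 (S100a6) was lower in NK1.1+ than in NK1.1- cells of miR-155KI mice, with 7.92% and 6.15% of 12942 genes called in those directions. In WT mice 2 (Anxa1 and Anxa6) were higher and 2 (Lgals1 and Lgals3) lower, with 9.89% and 10.9% of 13555 genes called. The medians over the 10 genes were -0.02 in miR-155KI and -0.01 in WT cells, against 0.03 and 0.01 over all genes, so the family moved in both directions. The pool difference of Lgals3 and Lgals1 passed in WT and not in miR-155KI mice, and the reverse was true of S100a6. Whether the genotype difference itself differed between pools was fitted as an interaction over all 12 libraries, in which 0.00694% and 0.0208% of 14401 genes were called higher and lower. By edgeR 0 of the 10 genes were called, 3 had an unadjusted p under 0.05 (Lgals3, Lgals1 and Anxa6), and DESeq2 called 1 (Lgals3). Over all genes, 1167 had an unadjusted p under 0.05 and DESeq2 called 140. Without miR-155KI NK1.1+ replicate 1 edgeR called 2 (Lgals3 and Anxa6), and 46 over all genes. As the interaction contains the contrast that chose the family, its values are a description, with log2 differences of 0.92 (SE 0.21) for Lgals3, 0.88 (SE 0.25) for Lgals1, 0.69 (SE 0.18) for Anxa6 and -0.54 (SE 0.27) for S100a6. The comparisons between pools share the NK1.1- libraries with the contrast that chose the family.

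**Figure D4:**
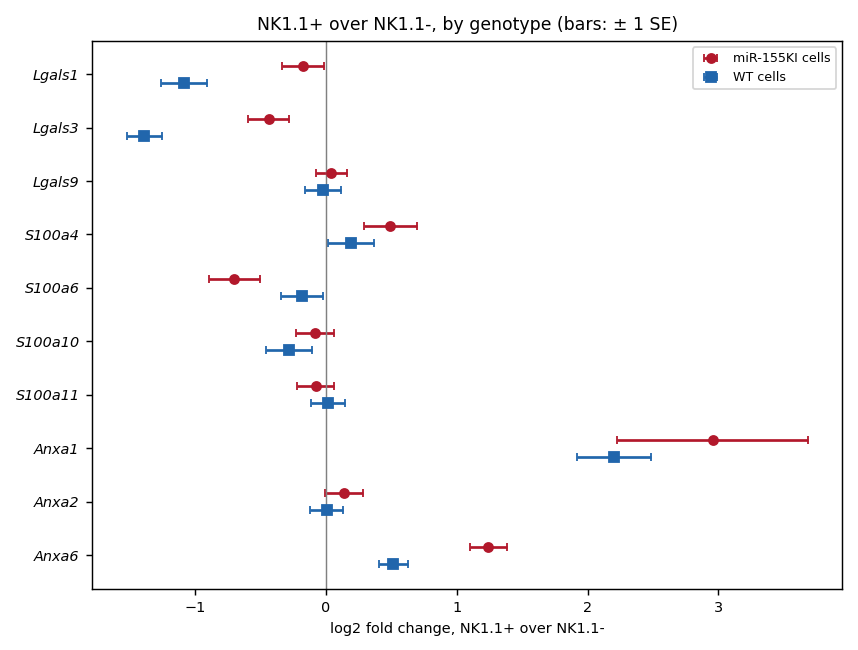
Log2 fold change of NK1.1+ over NK1.1- (x axis) for the 10 genes, in miR-155KI (circles) and WT cells (squares); bars are ± 1 SE and the vertical line marks 0. Lgals3 lies at -0.44 in miR-155KI and -1.38 in WT cells, Anxa6 at 1.24 and 0.52, and Anxa1 at 2.96 and 2.20.

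A further 53 genes were taken from the 3 families and a partner list. That list held receptors, glycan-branching enzymes, bound proteins and others such as Capg and Crip1. Of the 53 genes, 52 were in the table. Of those tested, 0 of 31 were called between genotypes in NK1.1+ cells by edgeR (6 at an unadjusted p under 0.05, 1 called by DESeq2). There edgeR called 3 of all 12991 genes, 1539 had an unadjusted p under 0.05 and DESeq2 called 316. In NK1.1- cells 0 of 32 were higher and 2 lower in miR-155KI than in WT, where 1.93% and 1.5% of all genes tested were called. The 2 were Cd7, a receptor of galectin-1 (log2 fold change -0.94, SE 0.13), and Crip1, a LIM-domain protein (-0.66, SE 0.13). The count is read as a description, like that of the family in this contrast. Between pools, 9 of 32 were higher and 2 lower in NK1.1+ cells of miR-155KI mice, where 7.92% and 6.15% of all genes tested were called. In those of WT mice 10 of 32 were higher and 3 lower, against 9.89% and 10.9% of all genes tested. Cd7 rose most clearly in both, by a log2 fold change of 3.18 in miR-155KI (adjusted p = 2.72e-05 by edgeR) and 2.15 in WT cells (adjusted p = 6.73e-06). Its mean was 966 CPM in miR-155KI NK1.1+ and 913 CPM in WT NK1.1+ cells, against 107 CPM in miR-155KI NK1.1- and 201 CPM in WT NK1.1- cells, whereas the mean of its ligand gene Lgals1 was higher in the NK1.1- pool of both genotypes. For Lgals1 that difference passed in WT cells only. In miR-155KI cells it was -0.18 for NK1.1+ over NK1.1-, with overlap (adjusted p = 0.547 by edgeR). Ahnak, a giant scaffold bound by the annexin A2 and S100A10 complex, rose in NK1.1+ cells by 1.03 in miR-155KI (adjusted p = 0.0017 by edgeR) and by 1.67 in WT cells (adjusted p = 1.08e-05), although Anxa2 and S100a10 themselves did not pass. Itgb1, the β1 integrin chain, which carries galectin ligands, rose by 1.62 in miR-155KI (adjusted p = 0.000268 by edgeR) and by 1.25 in WT cells (adjusted p = 0.000258). Crip1 rose by 0.83 in miR-155KI NK1.1+ cells (adjusted p = 0.000643 by edgeR), and the same difference was 0.09 in WT cells, with overlap (adjusted p = 0.756). Cd44, a hyaluronan receptor also used in the sort, rose by 1.17 in WT NK1.1+ cells (adjusted p = 4.34e-05 by edgeR) and by 0.93 in miR-155KI NK1.1+ cells (adjusted p = 0.0171). The neutrophil genes S100a8 and S100a9 were not called between genotypes in either pool. Their lowest, median and highest values in miR-155KI NK1.1+ libraries were 3.28, 17.7 and 180 CPM and 2.11, 21.6 and 169 CPM. In WT NK1.1+ libraries they reached at most 5.96 and 5.76 CPM. The miR-155KI NK1.1+ group also had the higher myeloid sums, but its libraries did not share that order. Both lowest values were those of replicate 2, which had the highest sum of the 9 myeloid markers without Fcer1g and Tyrobp, 392 CPM.

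Across the 12 libraries the genes of the family did not follow a common pattern. The pair most alike was Lgals3 and Lgals1 (Pearson r = 0.788 of log2 CPM over 12 libraries), followed by Anxa6 and S100a4 (0.727) and by S100a11 and S100a6 (0.711), and the pair most opposed was Anxa1 and S100a6 (-0.728). These values describe 12 libraries that share group and depth. Among 8848 other genes that reached a mean of 10 CPM in some group, the 5 most like Lgals3 were Eif5a (r = 0.957), a translation factor, Atp5g3 (0.933) and Atp5b (0.922), subunits of mitochondrial ATP synthase, Set (0.931), a histone chaperone, and U2af1 (0.928), a splicing factor. The gene most like each of the others was Akt1 for Lgals1 (0.956), Cox17 for Lgals9 (0.967), Dbnl for S100a4 (0.897), Sp3os for S100a6 (0.931), Manf for S100a10 (0.937), Hint2 for S100a11 (0.902), Alkbh2 for Anxa1 (0.945), Ccdc69 for Anxa2 (0.888) and Ctsd, which encodes the lysosomal protease cathepsin D, for Anxa6 (0.986).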

How the data were processed

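RNA-seq libraries of sorted thymic iNKT cells were grouped by their labels, 3 in each of 4 groups. The authors deposited raw counts per gene, aligned to GRCm38 (mm10) from reads demultiplexed with bcl2fastq 2.17.1.14 (submitters' processing notes). The aligner and the counter are not given in the sources used here. A normalized signal table, named CPM, was deposited too, in which each value is a count times 1 factor per library. The total count was 12819476 to 20518257 per library. Of 48709 names in the count table, 46344 matched GENCODE M21, and all 10 genes matched.

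The counts were fitted in R 4.3.3 with edgeR 4.0.16 (TMM factors, the default filter on low counts, robust quasi-likelihood test), each comparison on its own libraries and the interaction on all 12, with Benjamini-Hochberg adjustment over every gene tested and a threshold of 0.05. A fold change therefore uses the TMM factors of its own comparison, and printed levels those of all 12 libraries. Standard errors come from the fitted model, and 95% intervals are the estimate ± a normal quantile times them. Alternatives were DESeq2 1.42.0, RLE size factors, no filter, limma 3.58.1 on the deposited signal as log2(CPM + 1) or log2(CPM + 0.1), a block for the replicate number, one fit of all 12 libraries, each library left out in turn, and WT replicate 1 as the only WT library. The fits were tested on simulated data. Python 3.11.15 was used for tables and plots.

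Same-numbered libraries of the WT pools deviated from their group means in common (r = 0.315, 0.257 and 0.119 over the genes tested), so these numbers pair them, while the labels do not say what a number marks. In no other comparison did all 3 pairs exceed 0.1. Same-numbered pairs still had higher r than all other pairs between genotypes in NK1.1- cells (0.0694, 0.147 and 0.082). The same held between miR-155KI pools (0.113, 0.0586 and 0.0448). The text names all 10 genes, up to 4 other family or partner genes per comparison with the smallest p past the threshold that reach a mean of 10 CPM in a group, and the genes most alike in pattern, unnamed predicted genes left out. S100a8 and S100a9 were named, and the myeloid sum without Fcer1g and Tyrobp was added, after their values were seen. A marker of the iNKT17 list and a motif are not reported here. The genes, lists, motifs and tests were chosen with earlier results of these data known.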

Additional observations from a re-analysis of the deposited data

How the results depend on the processing

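Of 720 values of single genes under the alternatives, 671 kept their direction and side of the threshold or stayed within 1 standard error where no call was made, 16 called values were no longer called, 15 gained a call, 18 uncalled values moved by more than 1 standard error and 0 called values changed sign. The 4 calls between WT pools and the 0 calls between genotypes in NK1.1+ cells kept to that count within 1.5 times in every alternative. In NK1.1- cells the count of 2 genes between genotypes was 4 without the filter on low counts (Lgals1, Lgals3, S100a6 and Anxa6), 1 with all 12 libraries in one fit and 1 with WT replicate 1 as the only WT library, a fit that takes this lone library to vary like the others; it was 1 to 3 when a library was left out. Between miR-155KI pools the count of 3 was 5 without the filter and 1 to 4 when a library was left out. The interaction count of 0 was 1 with DESeq2, 2 without the filter, and 0 to 2 when a library was left out, 2 of them (Lgals3 and Anxa6) without miR-155KI NK1.1+ replicate 1. Over all genes the interaction count was 4 with edgeR, 140 with DESeq2, 162 without the filter and 46 without that replicate. The cause of these changes was not tested. Paired fits, with the replicate number as a block, gave 4 calls between WT pools and changed no call there. In the other comparisons the replicate block gave 3 calls between genotypes in NK1.1- cells (Lgals1 added), 0 in NK1.1+ cells, 2 between miR-155KI pools (Anxa1 at adjusted p = 0.0511 by edgeR) and 0 in the interaction. Over all genes tested, edgeR called 457 genes between genotypes in NK1.1- cells (DESeq2 953, no filter 1048, replicate block 737, one fit of all 12 libraries 139) and 3 in NK1.1+ cells (DESeq2 316, no filter 282, replicate block 7, one fit 60). With 12 to 50 counts of Anxa1 in each NK1.1- library, depth limits its fold changes.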
